A study of Mus musculus with 14 samples.

Results

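The genes described here are Klf4, Pou3f1 and Lhx4, 3 transcription factor genes whose mRNA had been seen to be lower in stimulated mouse macrophages that also received a nuclear receptor agonist. They were chosen by their log2 intensity in those agonist comparisons and found by gene symbol in the platform's annotation, which gave 1 probe for each (probe 5742 for Klf4, 6045 for Pou3f1 and 5781 for Lhx4, Entrez genes 16600, 18991 and 16872), or 3 of 10012 probes and 3 of 8841 named genes. All 3 passed the filter on low values. Their differences with an agonist are therefore given as descriptions, with no test.

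The samples were macrophages that thioglycollate, an irritant broth, had drawn into the peritoneum of female C57BL/6 mice 6 weeks old, and RNA was read on 14 one-colour arrays. The 7 groups of 2 arrays were untreated cells, cells given LPS (bacterial lipopolysaccharide, a TLR4 ligand), cells given poly(I:C) (synthetic double-stranded RNA, a TLR3 ligand), and cells given either stimulus with GW3965, which activates the liver X receptors (LXRs), or with GW7845, which activates PPARγ. No group had an agonist alone. The series text calls the 2 arrays biological replicates without saying whether the cells came from separate mice or pools. The p-values therefore measure the spread between the 2 arrays of a group, whatever its source. The sources used here name neither a dose nor a time.

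Klf4 encodes a zinc finger protein of the Krüppel-like family. It is known as one of the factors that reprogram fibroblasts to pluripotency and, in macrophages, as a regulator that acts with STAT6 in alternative activation and restrains NF-κB-driven genes. Pou3f1 (Oct-6) encodes a POU homeodomain protein known from myelinating Schwann cells, and type I interferon is known to induce it in macrophages. Lhx4 encodes a LIM homeodomain protein known from the development of the pituitary and of motor neurons. LXRs and PPARγ are lipid-binding nuclear receptors known both for activating lipid genes and for repressing inflammatory genes after TLR stimulation.

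The RefSeq promoter table (GRCm38.p6) held a window for Klf4 and for Lhx4. The 250 bases before the start listed there are printed 5′ to 3′ on the gene's strand to show which of the searched stimulus elements they carry, with any match in capitals. The Klf4 stretch is chr4:55532476-55532725, minus strand, and the Lhx4 stretch is chr1:155742028-155742277, minus strand.
Klf4: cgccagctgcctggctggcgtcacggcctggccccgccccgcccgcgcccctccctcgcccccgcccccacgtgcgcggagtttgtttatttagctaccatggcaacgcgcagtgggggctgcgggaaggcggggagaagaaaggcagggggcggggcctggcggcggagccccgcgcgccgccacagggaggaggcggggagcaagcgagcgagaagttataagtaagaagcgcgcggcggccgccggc
Lhx4: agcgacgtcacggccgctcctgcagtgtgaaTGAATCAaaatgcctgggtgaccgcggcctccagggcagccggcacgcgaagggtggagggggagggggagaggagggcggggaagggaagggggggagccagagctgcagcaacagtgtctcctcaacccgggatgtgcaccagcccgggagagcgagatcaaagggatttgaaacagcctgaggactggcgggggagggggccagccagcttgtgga
Both stretches were rich in G and C, at 74% for Klf4 and 66% for Lhx4, against a median of 52.4% over 32851 windows. In windows of 300 bases, 250 before and 50 after the start, 7 motifs were searched on both strands, and 1 match was found. It was TGANTCA, a loosened form of the AP-1 element, read as TGAATCA at positions -219 to -213 from the Lhx4 start, and 7.81% of all windows hold those letters. The usual AP-1 element has C or G at its centre, so the match is not that element. The letters searched for an interferon response element (held by 3.44% of windows), the STAT element (TTCNNNGAA, 8.3%), an NF-κB element (1.47%), the cyclic AMP element (TGACGTCA, 1.79%), the nuclear receptor hexamer (AGGTCA, 16.3%) and a TATA box (TATAAA, 13.6%) were not in either window.

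Values are log2 intensities on arrays whose median is 0 on that scale, so a difference of 1 is a factor of 2. The arrays fell into 2 technical sets, A and B, of 7 arrays each, with 1 array of every group in each set. The 10th percentile of intensity was 0.137 to 0.271 in set A and 0.0549 to 0.0833 in set B, and 29 probes were missing on all of set A alone and 30 on all of set B alone. Pou3f1 was higher in set A than in set B in 7 of 7 groups, by 0.68 to 2.12, Klf4 in 6 of 7 and Lhx4 in 5 of 7. Differences are therefore also given within each set, and a fit with the set as a block (the array-set fit) is given beside the plain fit where it changes a call. Whether the sets were separate cell preparations is not known, and the spread in the plain fit includes the gap between them. So does any difference given without 1 array of its groups, since a lone array of one set then stands against a mean over both sets. Of the stimulated arrays, poly(I:C) + GW7845 1 had the most probes at least 4-fold above every other stimulated array of its set (28), and LPS + GW3965 1 the most at least 4-fold below (30). Both are in set A.

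Lhx4 had the widest range. In set A and set B its log2 intensity was -0.78 and -1.70 in untreated cells, 4.36 and 3.67 with LPS, and 5.63 and 5.01 with poly(I:C). Untreated cells lay at the 41.7 and 36.8 percentiles of their arrays, so that level was not shown to be above background, while the poly(I:C) arrays lay at the 92.6 and 92.1 percentiles. With LPS + GW3965 it was 1.49 and 1.47, and with LPS + GW7845 2.94 and 2.97. With poly(I:C) + GW3965 it was 4.31 and 4.44, and with poly(I:C) + GW7845 5.91 and 5.15.

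In order of group means, Lhx4 ran from poly(I:C) + GW7845 (5.53) through poly(I:C) (5.32), poly(I:C) + GW3965 (4.38), LPS (4.02), LPS + GW7845 (2.96) and LPS + GW3965 (1.48) to untreated (-1.24). Of the neighbours in this order, poly(I:C) with and without GW7845 overlapped, as did poly(I:C) + GW3965 and LPS, and the other 4 gaps had no overlap. LPS + GW3965 lay 2.72 above untreated cells and 1.48 below LPS + GW7845.

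Pou3f1 was dim in untreated cells and lay above the array median with poly(I:C). Its log2 intensity in set A and set B was -1.49 and -3.37 in untreated cells, 1.87 and -0.25 with LPS, and 2.25 and 0.83 with poly(I:C). The untreated arrays placed it at the 33.0 and 21.5 percentiles, the lower of them near the floor of -3.87 to which smaller values were raised, and no array placed it above the 71.3 percentile. With LPS + GW3965 it was -0.70 and -2.16, and with LPS + GW7845 -0.56 and -1.80. With poly(I:C) + GW3965 it was 0.47 and -0.21, and with poly(I:C) + GW7845 1.04 and -0.26. Only 1 pair of neighbours in the order of its group means did not overlap, poly(I:C) + GW3965 (0.13) and LPS + GW7845 (-1.18). The sets lay far apart, and some neighbours were also close within a set. In set B, LPS exceeded poly(I:C) + GW7845 by 0.0062, and poly(I:C) + GW7845 differed from poly(I:C) + GW3965 by -0.046. Within each set, LPS + GW3965 was above untreated cells by 0.79 and 1.21.

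Klf4 was well expressed before any stimulus. Its log2 intensity in set A and set B was 3.96 and 3.51 in untreated cells, at the 85.4 and 85.5 percentiles, 4.30 and 3.34 with LPS, and 5.02 and 4.60 with poly(I:C). With LPS + GW3965 it was 2.31 and 2.15, and with LPS + GW7845 1.95 and 2.27. These 4 arrays were the lowest of the 14, 1.51 below untreated cells for the higher of the 2 group means, with no overlap. With poly(I:C) + GW3965 it was 4.09 and 3.77, and with poly(I:C) + GW7845 5.38 and 3.98, the widest spread of any group for this gene (SD 0.99). The other 5 pairs of neighbours in the order of its means overlapped, from poly(I:C) at the top to LPS + GW7845 at the bottom.

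**Figure D1:**
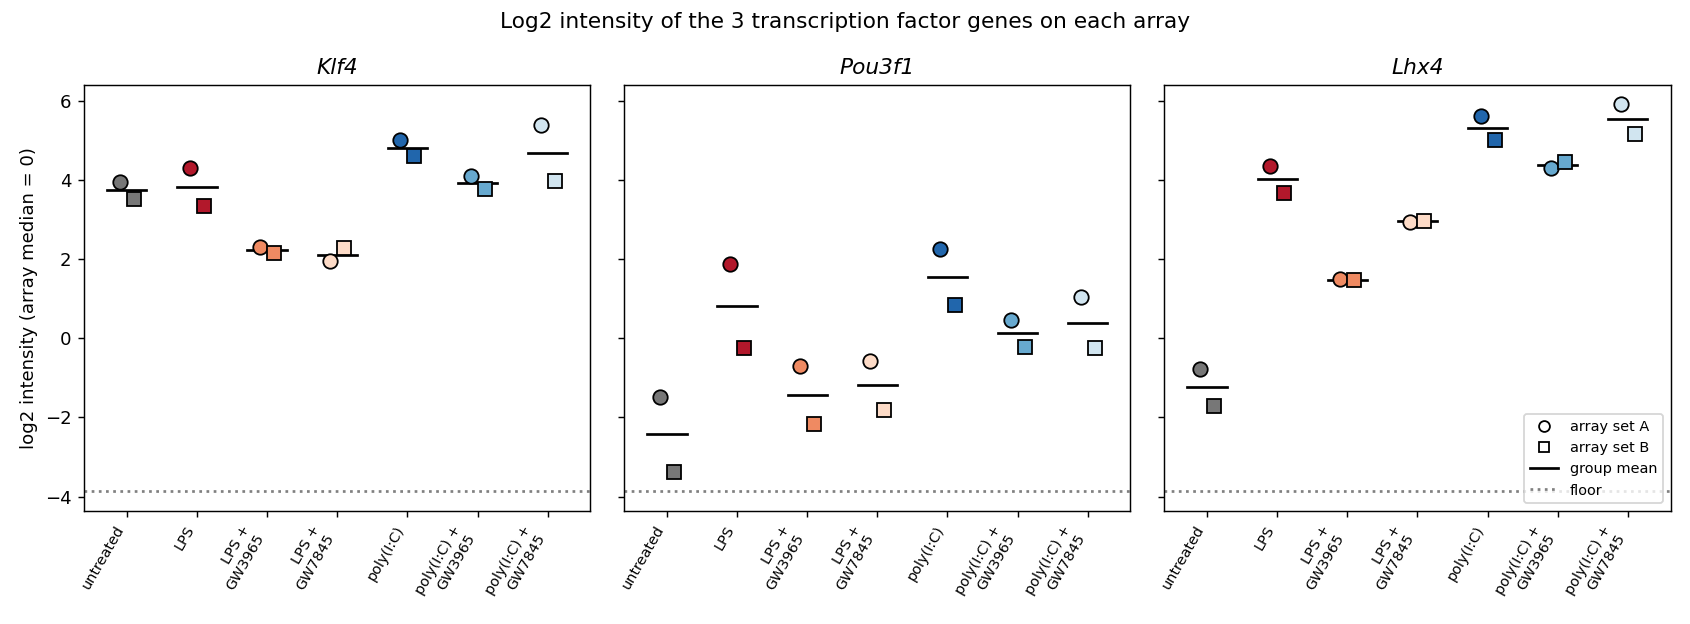
Log2 intensity (vertical axis, array median at 0) of Klf4, Pou3f1 and Lhx4 on each of the 14 arrays, by treatment group, with circles for set A, squares for set B, a line at each group mean and a dotted line at the floor. Klf4 is lowest in the 4 arrays given LPS with an agonist (1.95 to 2.31), and Lhx4 runs from -1.70 in untreated cells to 5.91 with poly(I:C) + GW7845.

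The stimuli were compared with untreated cells by limma over all 9584 tested probes. The rule did not use these comparisons, although the stimulus arrays are the ones the agonists were set against, so the 2 kinds of difference are not independent. Lhx4 rose by 5.26 with LPS (SE 0.41, limma adjusted p = 1.31e-06, within-set differences 5.14 and 5.37), or 38.2-fold, and by 6.56 with poly(I:C) (SE 0.41, adjusted p = 1.31e-07, 6.41 and 6.71), or 94.4-fold. Pou3f1 rose by 3.24 with LPS (SE 0.84, limma adjusted p = 0.0285, 3.36 and 3.12), or 9.43-fold, and by 3.97 with poly(I:C) (SE 0.84, adjusted p = 0.00708, 3.74 and 4.20), or 15.7-fold. The folds of both genes are approximate, since neither untreated level was shown to be above background. In bulk RNA, more cells that express a gene and more RNA per cell cannot be told apart.

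The Pou3f1 call with LPS was lost without the LPS 1 array (2.18, adjusted p = 0.26) or untreated 2 (2.30, 0.223), and with poly(I:C) without untreated 2 (3.03, 0.0871) or poly(I:C) 1 (3.26, 0.0775). Under LPS it was also lost with only the 4 arrays compared in the fit (adjusted p = 0.101) or with no intensity trend (0.0744), while the array-set fit gave 1.68e-05. Klf4 differed from untreated cells by 0.08 with LPS (95% interval -0.90 to 1.07, limma adjusted p = 0.989), positive in set A (0.34) and negative in set B (-0.18), and by -0.038 after quantile normalization. With poly(I:C) it was 1.07 higher (95% interval 0.09 to 2.05, adjusted p = 0.211, sets 1.06 and 1.09), which passed in the array-set fit (adjusted p = 0.0389). So 2 of 3 genes were called with LPS, where limma called 7.8% of all probes and 5.21% as higher, and 2 of 3 with poly(I:C), against 8.86% and 6.08%. In the array-set fit, which called 2 of 3 genes with LPS and 3 of 3 with poly(I:C), it called 17.8% of probes with LPS (9.59% higher) and 18.7% with poly(I:C) (10.6% higher).

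Poly(I:C) and LPS were then set against each other. Lhx4 was 1.30 higher with poly(I:C) (95% interval 0.43 to 2.18, sets 1.26 and 1.34), Klf4 0.99 higher (0.01 to 1.97, sets 0.71 and 1.26) and Pou3f1 0.73 higher (-1.07 to 2.54, sets 0.38 and 1.09). None of the 3 passed in limma over all probes (adjusted p = 1 for each), and 2 had an unadjusted p under 0.05. In this comparison limma called 0.0104% of the probes, or 1 probe, and 52 had an unadjusted p under 0.05. The array-set fit called 0 of 3 genes and 0.0209% of the probes. The Pou3f1 difference was -0.33 without LPS 2, where the LPS 1 array of set A was set against poly(I:C) arrays of both sets. It therefore includes the gap between sets, and within each set the difference was positive.

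**Figure D2:**
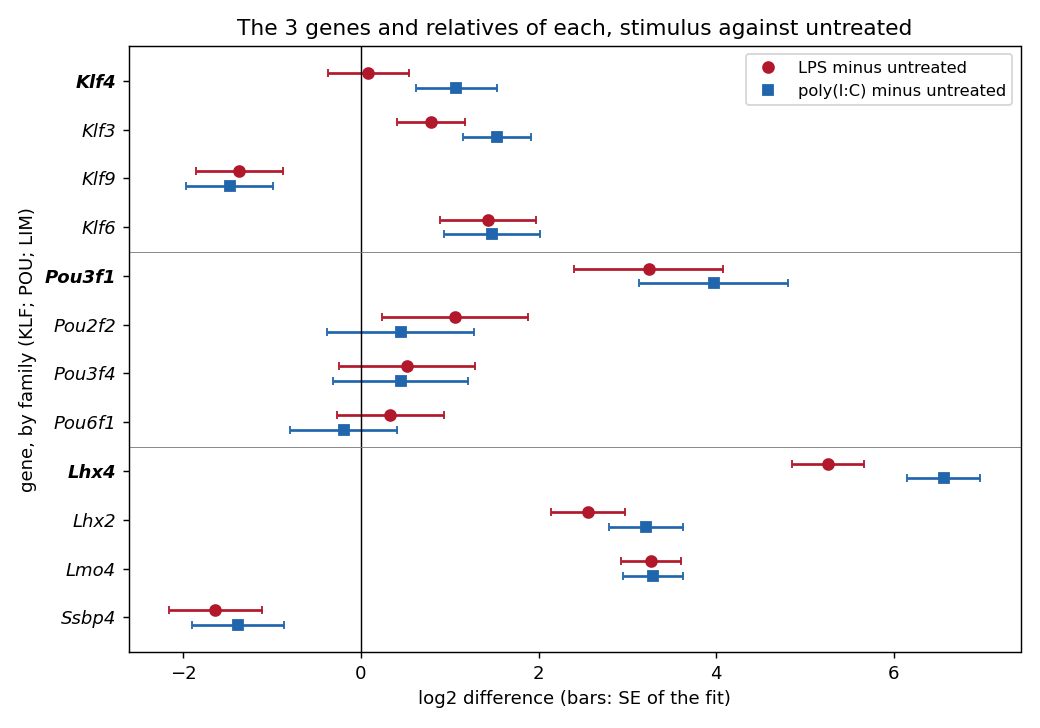
Log2 difference from untreated cells (horizontal axis, bars the SE of the fit) with LPS (circles) and poly(I:C) (squares) for Klf4, Pou3f1 and Lhx4 (bold) and relatives of each. Lhx4, Pou3f1, Lhx2 and Lmo4 lie at 2.56 or above with both stimuli, and the POU relatives lie between -0.19 and 1.06.

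The differences with an agonist follow, as descriptions of the values that chose the genes. Under LPS, Lhx4 differed by -2.54 with GW3965 (sets -2.88 and -2.20), at 17.2% of its level with LPS alone, and by -1.06 with GW7845 (-1.42 and -0.69), at 48.1%. Pou3f1 differed by -2.24 with GW3965 (-2.56 and -1.91), at 21.2%, and by -1.99 with GW7845 (-2.43 and -1.55), at 25.2%. Klf4 differed by -1.59 with GW3965 (-1.997 and -1.19), at 33.2%, and by -1.71 with GW7845 (-2.36 and -1.07), at 30.5%. Both arrays with either agonist lay below both LPS arrays for 3 of 3 genes, where 12.3% of all probes did so with GW3965, 11.1% with GW7845 and 4.99% with both. The 2 agonist comparisons share the LPS arrays.

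In each of these 6 differences set A gave the larger value. Without the LPS 1 array the differences with GW3965 were -2.19 for Lhx4, -1.18 for Pou3f1 and -1.11 for Klf4, and those with GW7845 were -0.71, -0.93 and -1.23. Without LPS + GW3965 1, the array with many low probes, the differences with GW3965 were -2.55 for Lhx4, -2.97 for Pou3f1 and -1.67 for Klf4. These values without 1 array include the gap between sets. Within set B alone the differences with GW3965 were -2.20 for Lhx4, -1.91 for Pou3f1 and -1.19 for Klf4.

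Under poly(I:C), GW3965 came with lower values of all 3 genes and GW7845 with lower values of Pou3f1 alone in both sets. With GW3965, Pou3f1 differed by -1.41 (sets -1.78 and -1.05), at 37.5% of its level with poly(I:C) alone, Lhx4 by -0.94 (-1.32 and -0.57), at 52.1%, and Klf4 by -0.88 (-0.93 and -0.84), at 54.3%. Both GW3965 arrays lay below both poly(I:C) arrays for 3 of 3 genes, as for 12% of all probes, and 4.11% of probes did so under both stimuli, against 1.87% with GW7845. With GW7845, Pou3f1 differed by -1.15 (-1.20 and -1.09), at 45.1%, and the groups overlapped. Klf4 differed by -0.13 (0.37 in set A and -0.62 in set B) and Lhx4 by 0.21 (0.29 and 0.14), both with overlap, so the description of these genes as lower with the agonists did not hold for these 2 genes with GW7845 and poly(I:C). None of the 3 genes was lower without overlap there, and 6.78% of all probes were. Without poly(I:C) + GW7845 1, the array with many high probes, the differences were -0.83 for Klf4, -0.17 for Lhx4 and -1.80 for Pou3f1. Without poly(I:C) 1, Pou3f1 differed by -0.71 with GW3965 and -0.44 with GW7845, Klf4 by -0.68 and 0.077, and Lhx4 by -0.63 and 0.52. These values without 1 array include the gap between sets, unlike the within-set differences. Whether the agonist differences differed between LPS and poly(I:C), or between the agonists, was not tested.

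**Figure D3:**
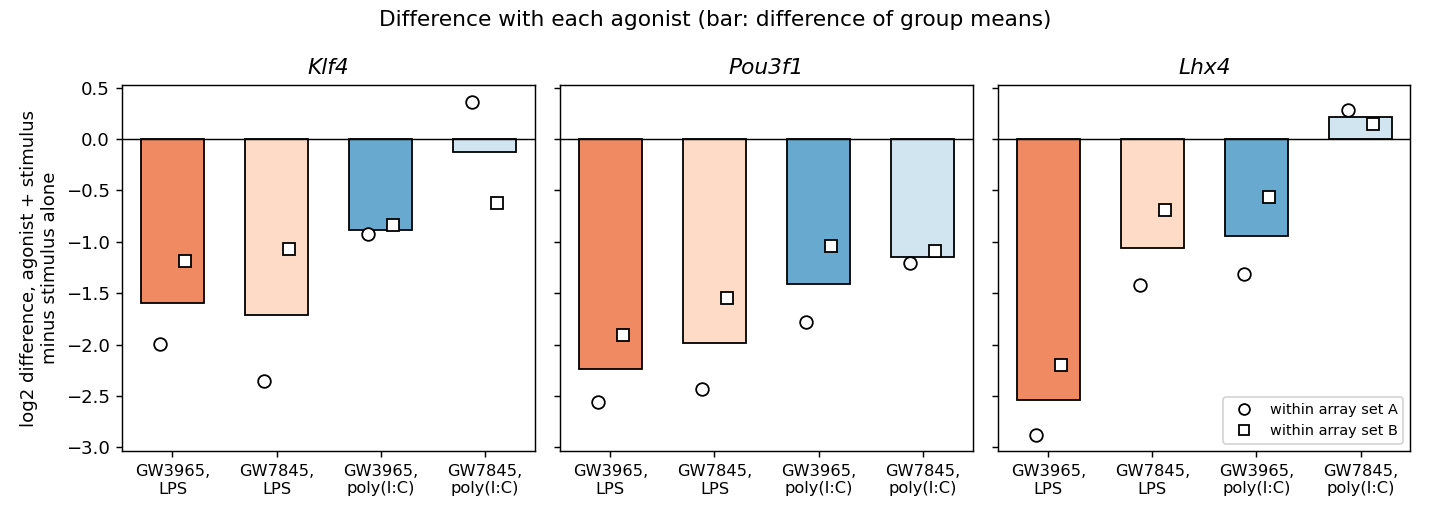
Log2 difference between stimulus with agonist and stimulus alone (vertical axis) for Klf4, Pou3f1 and Lhx4, with bars for the difference of group means, circles for set A and squares for set B. The 9 bars for GW3965 and for GW7845 under LPS lie between -0.88 and -2.54, and with GW7845 and poly(I:C) Klf4 (-0.13) and Lhx4 (0.21) lie near 0.

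Relatives of the genes were followed in 3 family lists, each without the gene itself. Of the Krüppel-like and SP factors, zinc finger proteins that bind GC-rich elements, 14 were measured. Of all probes, limma called 7.8% with LPS and 8.86% with poly(I:C), 6.08% as higher with poly(I:C). With LPS 0 of 14 passed limma, 2 had an unadjusted p under 0.05 and the median difference was 0.06, against 0.07 over all probes. With poly(I:C) 1 of 14 rose, Klf3 by 1.53 (SE 0.38, limma adjusted p = 0.0212), a call that was lost without untreated 2, poly(I:C) 1 or poly(I:C) 2 (adjusted p = 0.156, 0.13 and 0.0638). The array-set fit also called Klf6 higher with both stimuli (1.43 and 1.48, adjusted p = 0.00997 and 0.00753) and Klf9, known for its response to glucocorticoids, lower (-1.37 and -1.48, adjusted p = 0.0195 and 0.0115). That fit called 17.8% of all probes with LPS and 18.7% with poly(I:C). In the 3 agonist comparisons where Klf4 was lower without overlap, 0 of 14 relatives were so with GW3965 and LPS (12.3% of all probes), 2 of 14 with GW7845 and LPS (11.1%) and 4 of 14 with GW3965 and poly(I:C) (12%). The medians of the 14 were 0.014, -0.17 and -0.32.

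Of the POU factors and the coactivator Pou2af1, 6 were measured. None passed limma with LPS or poly(I:C), with 0 of 6 at an unadjusted p under 0.05, and Pou2f2 (Oct-2, a lymphocyte POU factor) was at 1.06 with LPS (SE 0.83). Limma called 7.8% of all probes with LPS and 8.86% with poly(I:C), so 0 calls among 6 genes says little about the family. Pou3f1 was the POU gene on this array called with a stimulus, although its calls were lost without certain single arrays. Pou2f2 differed from LPS alone by -1.58 with GW7845 and from poly(I:C) alone by -1.27 with GW3965, in both cases without overlap. In each of these 2 comparisons it was the 1 of 6 lower without overlap, as were 11.1% and 12% of all probes. With overlap, Pou2f2 differed by -1.08 with GW3965 under LPS and by 0.15 with GW7845 under poly(I:C).

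Of the LIM homeodomain genes and the LIM cofactors that bind them, 15 were measured and 2 rose with both stimuli. Over all probes, limma called 5.21% higher with LPS and 6.08% with poly(I:C). Lhx2, a LIM homeodomain factor known from the eye and hair follicle, rose by 2.56 with LPS (SE 0.42, limma adjusted p = 0.00114) and 3.21 with poly(I:C) (adjusted p = 0.00015). Its values in set A and set B were -0.83 and -1.67 in untreated cells, 1.53 and 1.09 with LPS, and 2.14 and 1.78 with poly(I:C). Lhx2 differed from the stimulus alone by -1.32 with GW3965 and -1.25 with GW7845 under LPS, and by -0.66 and -0.54 under poly(I:C), in each case with both arrays below both of the stimulus alone, as for 0.801% of all probes in all 4 comparisons. Lmo4, a LIM-only protein without a homeodomain, rose by 3.27 with LPS (SE 0.34, limma adjusted p = 1.98e-05) and 3.29 with poly(I:C) (adjusted p = 1.64e-05), and differed by -0.35, -0.56, -0.79 and -0.60 in the same 4 agonist comparisons, again without overlap. The single-stranded DNA-binding cofactor Ssbp4 was at -1.64 with LPS and -1.39 with poly(I:C) (limma adjusted p = 0.0784 and 0.138), and passed as lower with both in the array-set fit (0.0034 and 0.00952). That fit called 4 of 15 as higher with LPS, adding Lmo1 and Ssbp2 (limma adjusted p = 0.0452 and 0.0178), and 2 of 15 with poly(I:C). It called 9.59% of all probes higher with LPS and 10.6% with poly(I:C). The median of the 15 was 0.32 with LPS and 0.45 with poly(I:C), against 0.07 and 0.10 over all probes. With GW3965 and GW7845 the medians were 0.14 and 0.04 under LPS, and -0.07 and 0.15 under poly(I:C). In that order 10, 8, 4 and 10 of the 15 lay above 0, and 3, 4, 3 and 3 lay lower without overlap. Of all probes, 12.3%, 11.1%, 12% and 6.78% lay lower without overlap.

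A list drawn up for Klf4 and alternative activation gave a mixed picture. Whether its genes depend on Klf4 in these cells was not tested. Of its 7 measured genes, 2 rose with LPS and 3 with poly(I:C), where limma called 5.21% and 6.08% of all probes higher. The medians of the 7 were 0.0054 and 0.042, against 0.07 and 0.10 over all probes, and 3 of 7 lay below 0 with each stimulus. Socs3, an inhibitor of cytokine signalling, rose by 4.86 and 4.84 (limma adjusted p = 4.12e-07 and 3.97e-07). The chemokine Ccl24 was 1.64 higher with LPS (limma adjusted p = 0.104), which passed in the array-set fit (adjusted p = 0.007) and made 3 of 7, and rose by 2.35 with poly(I:C) (adjusted p = 0.0151, lost without untreated 2 or poly(I:C) 1). With the agonists the median of the 7 was -0.51 for GW3965 and -0.42 for GW7845 under LPS, and -0.75 and -0.55 under poly(I:C), against 0.02, -0.04, -0.10 and 0.02 over all probes, and 2, 2, 3 and 3 of the 7 lay lower without overlap, as did 12.3%, 11.1%, 12% and 6.78% of all probes. Chil3, a chitinase-like protein of alternative activation, lay higher without overlap with both agonists under poly(I:C), at 0.15 with GW3965 and 2.20 with GW7845, where 3 of the 7 were above 0. Ccl24 differed by -0.80 with GW3965 and -1.34 with GW7845 under LPS, and by -1.67 and -1.68 under poly(I:C).

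Of the interferon-pathway transcription factors, 7 of 15 rose with LPS and 7 with poly(I:C) (8 and 9 in the array-set fit), where limma called 5.21% and 6.08% of all probes higher, led by Irf7 at 3.78 and 4.04 and Irf1 at 3.29 and 3.90. Under LPS their median was -0.01 with GW3965 and -0.19 with GW7845. Of 25 interferon-stimulated genes, 25 rose with each stimulus (medians 5.91 and 6.21). Of these, 24 lay below LPS alone with GW3965 (median -1.03, 21 without overlap) and 22 with GW7845 (median -0.56, 14 without overlap), where 12.3% and 11.1% of all probes lay lower without overlap. Under poly(I:C) their medians were -0.25 with GW3965 and -0.16 with GW7845, with 12 and 3 lower without overlap, against 12% and 6.78% of all probes. Of 27 early-response transcription factors, 5 rose with each stimulus (10 in the array-set fit), among them Nfkb2 (3.92 and 4.04), Relb and Rel. Of all probes, limma called 5.21% higher with LPS and 6.08% with poly(I:C), and the array-set fit 9.59% and 10.6%. Of the 27, 2 fell with LPS and 0 with poly(I:C), where limma called 7.8% and 8.86% of all probes in either direction. Their medians with GW3965 and GW7845 under LPS were -0.11 and -0.05, against 0.02 and -0.04 over all probes.

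The agonists' own targets were read as a check of the labels. Of 15 LXR targets, 13 lay higher without overlap with GW3965 under LPS and 10 under poly(I:C) (medians 1.81 and 1.74), against 5 and 0 with GW7845 (medians -0.0034 and -0.16). Of all probes, 12.3% and 8.36% lay higher without overlap with GW3965 and 9.01% and 6.69% with GW7845. Of 11 PPARγ targets, 3 and 1 lay higher without overlap with GW7845 under LPS and poly(I:C), with medians of -0.13 and 0.17, and 3 and 3 with GW3965, with medians of 0.12 and -0.29. The PPARγ list therefore did not tell the GW7845 arrays from the GW3965 arrays. Pparg itself fell by 4.16 on the log2 scale with LPS and fell by 3.96 with poly(I:C) (limma adjusted p = 7.77e-06 and 1.07e-05).

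The 9 macrophage markers differed widely in signal. Lyz2 lay between intensities of 998 and 1939, Cd14 between 50.5 and 837 and Msr1 between 58.8 and 164, whereas the median was 6.05 for Mrc1, 3.98 for Adgre1 and 1.02 for Cd163, and Fcgr1 was at the floor on 3 arrays. With GW3965, 9 of 9 lay below LPS alone (median -0.43, 5 without overlap, Cd163 at -1.35) and 8 of 9 below poly(I:C) alone (median -0.35, 0 without overlap). Over all probes these medians were 0.02 and -0.10, and 12.3% and 12% lay lower without overlap. With GW7845, 6 of 9 lay below each stimulus alone (medians -0.19 and -0.020, against -0.04 and 0.02 over all probes). Their summed intensity was 2633 to 4075 with LPS, 2337 to 2620 with LPS + GW3965 and 2289 to 2799 with LPS + GW7845. Markers of mesothelial cells and fibroblasts summed to 9.75 to 16.8 over 13 genes in all groups, with Krt18 and Postn at the floor on 5 arrays each. The summed intensity of 8 neutrophil markers was 37.4 to 49.9 with LPS, 22.4 to 24.8 with LPS + GW3965 and 36.9 to 41.6 with LPS + GW7845. It was 31.4 to 52.9 with poly(I:C), 19.97 to 21.1 with poly(I:C) + GW3965 and 51.2 to 61.7 with poly(I:C) + GW7845. S100a8, which stimulated macrophages also express, carried most of it. Camp and Csf3r reached 7.48 and 7.38, whereas Mpo and Elane stayed at 0.345 and 0.449 or less. With GW3965 and LPS, 2 of 7 tested neutrophil markers lay lower without overlap, S100a8 (-1.06) and Camp (-1.05). Of all probes 12.3% did so, and 3 of the 7 markers lay above 0. The B-cell sum was 18.9 to 27.2 with LPS and 14.9 to 19.3 and 16.6 to 17.8 with the agonists. The T and NK cell sum was 23.5 to 29.3 with LPS, 19.7 to 29.0 with LPS + GW3965 and 18.5 to 22.3 with LPS + GW7845, most of it from Gzma, and the mast cell and eosinophil sum was 15.4 to 24.4 over all groups. The part of these markers in the differences of the 3 genes was not tested.

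The genes whose values followed each factor most closely were found by Pearson's r over the 14 arrays, after each set's mean was subtracted, among 7653 probes. These r values are descriptions, and the arrays share untreated and stimulated states that many probes follow. The calls and differences of the genes picked this way come from the same arrays, so they follow in part from the choice. Of all probes, limma called 5.21% higher with LPS and 6.08% with poly(I:C). Lhx4 was followed by Timeless, a circadian and replication fork protein (r = 0.99), the histone chaperone Asf1a (0.98), the interleukin-15 receptor chain Il15ra (0.98), the histone chaperone Daxx (0.97) and the midbody protein Cep55 (0.97). All 5 rose with both stimuli, Cep55 by 6.40 and 7.57 and Timeless by 3.43 and 3.85, although the Asf1a call with LPS (limma adjusted p = 0.0128) was lost without LPS 1 (0.149) or untreated 2 (0.101). With GW3965 and LPS they differed from LPS alone by -1.86 to -0.81, and Lhx4 by -2.54.

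Pou3f1 was followed by Lhx2 (r = 0.96), the chromatin protein Hmgn3 (0.96), the caspase Casp8 (0.95), the chemokine Ccl12 (0.95) and Pdcd10 (0.94). Of these 5, picked on the same arrays, 2 rose with LPS and 3 with poly(I:C), against 5.21% and 6.08% of all probes. The Hmgn3 call with poly(I:C) (limma adjusted p = 0.033) was lost without untreated 2 or poly(I:C) 1. Ccl12 rose by 6.27 and 6.90 (limma adjusted p = 3.69e-05 and 1.24e-05) and differed by -3.65 with GW3965 and LPS. Klf4 was followed by Kitl, the ligand of the receptor Kit (r = 0.95), the coactivator Cited2 (0.92), the replication clamp Pcna (0.91), the deacetylase Sirt1 (0.91) and the leukotriene receptor Cysltr1 (0.91), none of them called by limma with either stimulus. Under LPS, Kitl differed by -0.98 with GW3965 and -1.05 with GW7845, and Cited2 by -0.94 and -1.47.

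**Figure D4:**
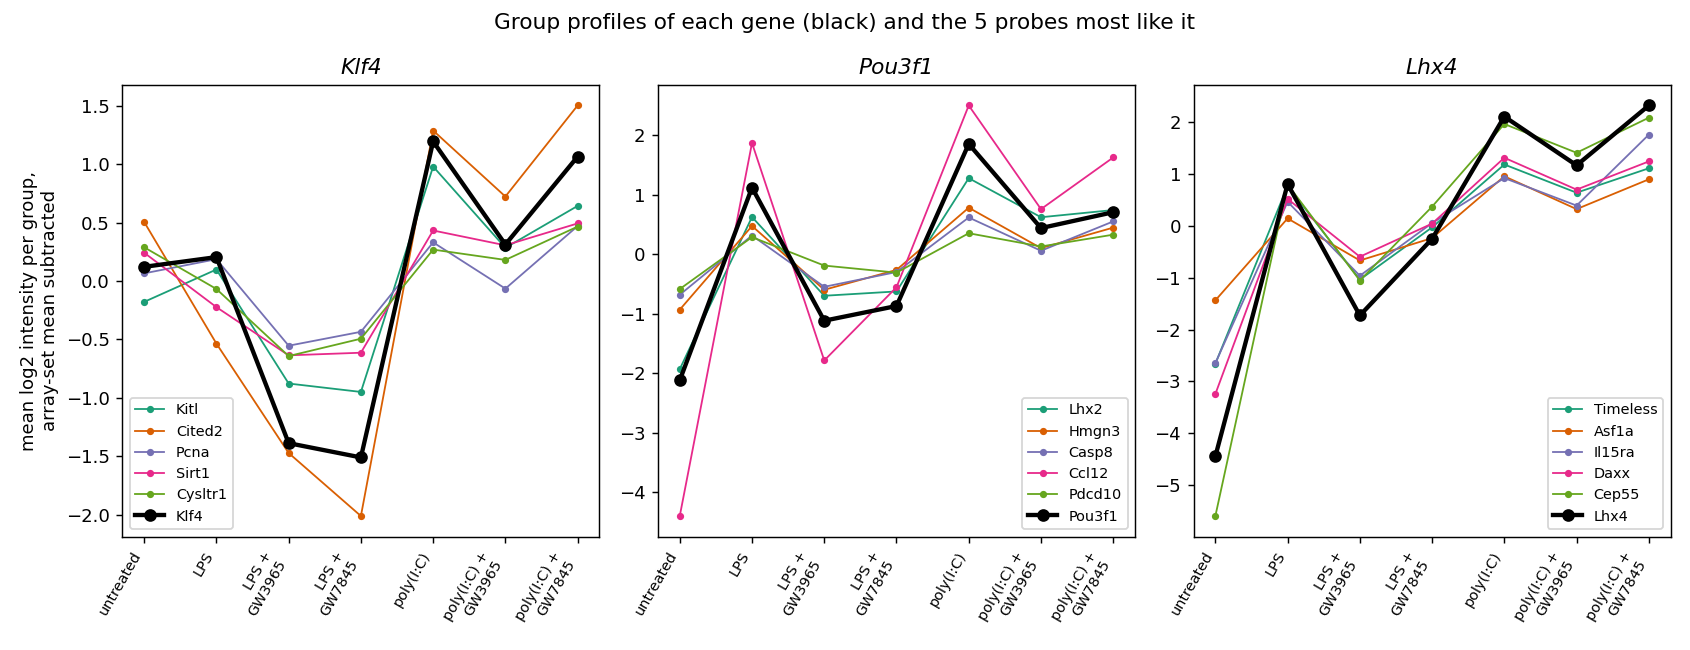
Mean log2 intensity per group after subtraction of the array-set mean (vertical axis) for Klf4, Pou3f1 and Lhx4 (black) and the 5 probes most like each (colours). The Lhx4 and Pou3f1 profiles are lowest in untreated cells, and the Klf4 profile is lowest with LPS and an agonist.

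Among themselves, Pou3f1 and Lhx4 had r = 0.91 over the 14 arrays, and 34 of the 7653 probes were closer to Pou3f1 than Lhx4 was. Klf4 had r = 0.64 with Pou3f1 and 0.50 with Lhx4. Over the 12 stimulated arrays alone these were 0.85, 0.89 and 0.92, so Klf4 followed the other genes among stimulated cells and departed from them in untreated cells, where it was already high. These arrays are the ones on which the genes were chosen.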

How the data were processed

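RNA of 14 samples was read on one-colour arrays after labelling with biotinylated UTP, per the labels' protocols. The deposited values are linear intensities with a median of 1 on each array. The sources used here do not say how the authors scaled them, corrected background or scanned the arrays. The share of values at or below 0 was 0.0903% to 0.421% per array. Values under the 5th percentile of positive values (0.0686, log2 -3.87) were raised to it, and log2 was taken. Probes above their array's 20th percentile on at least 2 arrays were tested (9584 of 10012). Of all 10012 probes, 8983 had 1 symbol. Group means of all 14 arrays were fitted in limma 3.58.1 (R 4.3.3) with an intensity trend and Benjamini-Hochberg adjustment over all tested probes; called means an adjusted p under 0.05. The code was tested on simulated data. List members have 1 probe a gene, the brightest.

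The array set was told from missing probes and the 10th percentile. Replicate numbers did not pair the samples: differences between numbers 1 and 2 correlated between groups at -0.54 to 0.67, because number 1 was in set A in 6 groups and in set B in 1 (LPS + GW7845), while set differences correlated at 0.35 to 0.67. The genes, lists and comparisons were chosen with earlier results of these data known. Named genes are the 3 factors, relatives called with a stimulus (or the 3 with the smallest p), the 3 smallest p with LPS of other lists and the 5 highest r; genes that are named outside this rule (S100a8, Chil3, Lmo1, Ssbp2 and the marker genes) were chosen after their values were seen. Promoter motifs were searched as plain letters in RefSeq windows. The alternatives were another floor, no filter, quantile normalization, no trend, fewer arrays and blocks. The number of arrays limits the precision.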

Additional observations from a re-analysis of the deposited data

Results flagged for a closer look

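With GW7845, Lhx4 lay below the stimulus alone under LPS in both array sets (-1.42 and -0.69) and above it under poly(I:C) in both (0.29 and 0.14), so both sets lay one way under LPS and the other way under poly(I:C). The difference under poly(I:C) exceeded that under LPS by 1.27 on the log2 scale. The difference between the stimuli was not tested. Without poly(I:C) + GW7845 1 the poly(I:C) value was -0.17 and without poly(I:C) 2 it was -0.094. Each of these 2 values sets a lone array of one set against a mean over both sets, so it includes the gap between sets.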

How the results depend on the processing

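Lhx4 kept its calls and direction against untreated cells under every alternative run. Pou3f1 lost its call with LPS with no intensity trend (3.24, adjusted p = 0.0744) and with only the groups compared (3.24, 0.101). Klf4 changed sign with LPS under quantile normalization (-0.038) and passed with poly(I:C) with the array set block (1.07, adjusted p = 0.0389). With the replicate block, no call of the 3 genes changed, the Klf4 adjusted p with poly(I:C) was 0.0559, and 1067, 1191 and 2 probes were called in the comparisons with LPS, with poly(I:C) and between them. The main counts were 748, 849 and 1. The array set block gave 1703, 1788 and 2, and only the groups compared gave 410 and 457. Quantile normalization gave 996 probes lower without overlap with GW7845 and poly(I:C), against 645. Leaving out 1 array moved the counts to 467 to 819, 548 to 924 and 1 to 2, with 484 without LPS 1, 467 without LPS 2 and 548 without poly(I:C) 1. Leaving out 1 array also gave these ranges of log2 differences, which include the gap between sets. For LPS against untreated they were -0.40 to 0.56 for Klf4, 2.18 to 4.30 for Pou3f1, 4.79 to 5.72 for Lhx4. For poly(I:C) against untreated they were 0.85 to 1.30 for Klf4, 3.03 to 4.91 for Pou3f1, 6.10 to 7.02 for Lhx4. For poly(I:C) against LPS they were 0.51 to 1.47 for Klf4, -0.33 to 1.79 for Pou3f1, 0.95 to 1.65 for Lhx4. For GW3965 with LPS against LPS they were -2.07 to -1.11 for Klf4, -3.30 to -1.18 for Pou3f1, -2.89 to -2.19 for Lhx4. For GW7845 with LPS against LPS they were -2.19 to -1.23 for Klf4, -3.05 to -0.93 for Pou3f1, -1.41 to -0.71 for Lhx4. For GW3965 with poly(I:C) against poly(I:C) they were -1.09 to -0.68 for Klf4, -2.12 to -0.71 for Pou3f1, -1.25 to -0.63 for Lhx4. For GW7845 with poly(I:C) against poly(I:C) they were -0.83 to 0.57 for Klf4, -1.85 to -0.44 for Pou3f1, -0.17 to 0.59 for Lhx4. Quantile normalization turned Pcna to -0.18 with LPS and -0.16 with poly(I:C). Uncalled genes that crossed 0 when 1 array was left out were, for LPS against untreated Pou2f2 (-0.0033 to 2.12), Pou3f4 (-0.14 to 1.18), Pou6f1 (-0.22 to 0.88), Pcna (-0.25 to 0.49); and for poly(I:C) against untreated Pou2f2 (-0.62 to 1.51), Pou3f4 (-0.13 to 1.02), Pou6f1 (-0.74 to 0.36), Cited2 (-0.17 to 1.73), Sirt1 (-0.31 to 0.69), Cysltr1 (-0.076 to 0.036). Percentile ranks within the arrays kept the direction of all 12 agonist differences. With no background signal given, only their low levels show that Pou3f1 and untreated Lhx4 are limited by signal. The causes of these changes were not tested.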
